A study of Mus musculus with 12 samples.

Results

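The second step of a 4-point time course of mouse embryonic stem (ES) cells, from day 2 to day 4, was followed by sequencing of polyadenylated RNA. The groups were day 4, with 3 libraries, and day 2, with 3 libraries, chosen by the day in their labels, and they are 6 of the 12 libraries of the series (days 0, 2, 4 and 6, 3 each). The count table lists 55335 genes, of which 16468 passed the expression filter and entered the test; 22866 had no count at all. One growth protocol is given for all libraries: a KnockOut Serum Replacement medium with leukaemia inhibitory factor (LIF), on gelatin with irradiated mouse embryonic fibroblasts as feeders. No mutation, transgene or sex is labelled, the line is given only as mESC, and the labels do not state how the cells were treated after day 0. Nor do they say whether the 3 libraries of a day came from separate cultures. Each p-value therefore rests on the differences among libraries of a day, which may be technical only. The title of the series names the NuRD complex, a chromatin remodeller, and CTCF sites, and both sets of genes are described among the results.

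ES cells are held in self-renewal by a network of transcription factors around Pou5f1, Sox2 and Nanog, which LIF supports through its receptor and STAT3. When the network is released, cells can enter embryonic lineages (ectoderm, mesoderm, endoderm) or extraembryonic ones (primitive endoderm, trophectoderm). Retinoic acid, a form of vitamin A, is a common trigger: its receptors switch on Hox genes, which set position along the body axis, and enzymes of the Cyp26 family, which destroy the signal. The labels name no such treatment.

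Levels are given as counts per 1e6 counts (CPM), not corrected for gene length, so they compare a gene between days and not one gene with another. Means are ± SD over the 3 libraries of a day (n = 3), and changes are fitted log2 fold changes ± SE, day 4 over day 2. A gene is said to have risen or fallen where edgeR's quasi-likelihood test gave an adjusted p (Benjamini-Hochberg, over all genes tested) under 0.05. In bulk RNA, fewer cells of a type and less RNA per cell cannot be told apart.

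Total counts were 6.946 to 10.16 times 1e6 at day 4 and 10.59 to 12.79 times 1e6 at day 2. The libraries of each day lay close together in principal components and apart from the other days, and no 2 libraries of a day agreed within sampling noise (chi-square per degree of freedom 1.99 to 2.29 at day 4 and 2.24 to 3.80 at day 2). ES cell markers were present on both days, as the values of Pou5f1, Nanog and Zfp42 below show. Of 23 fibroblast markers, which feeder cells could add, the summed level was 103 to 109.9 CPM at day 4 and 84.8 to 91.7 CPM at day 2. The highest were Ccn2, at 17.7 CPM at day 4 and 13.2 CPM at day 2, and Col1a2, at 14.8 CPM at day 4 and 12.9 CPM at day 2. Lum, Dcn, Fap and S100a4 averaged at most 0.193 CPM at day 4 and 0.0303 CPM at day 2. Lox averaged 0.112 CPM at day 4 and 0.501 CPM at day 2. Mitochondrially encoded genes took 2.37 to 2.54% of counts at day 4 and 1.38 to 1.45% at day 2. The gene model Gm42418, which overlaps ribosomal RNA sequence, took 1.51 to 1.56% at day 4 and 0.322 to 0.351% at day 2.

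The cells at day 4 had less RNA of the pluripotency network, of sterol and fatty acid synthesis and of ribosomal proteins than at day 2. More genes rose than fell among mesoderm factors, contractile genes of smooth muscle, collagens, imprinted genes and genes of protein folding. Of the genes tested, 8245 (50.1%) differed between the days: 4167 rose (25.3%) and 4078 fell (24.8%). Most changes were small, since 5078 of the changed genes (61.6%) moved by under 1.5-fold and the median absolute log2 change over all genes was 0.27. Large changes leaned upward: 988 genes rose by at least 2-fold (6.00%) and 558 fell by as much (3.39%), and at 4-fold there were 304 rises and 66 falls. The CPM of the 3 libraries of day 4 did not overlap with those of day 2 for 9179 genes (55.7%). Among 720 long noncoding RNA genes tested, 198 rose and 70 fell. The median log2 change over all genes was 0.00, and the shares of 25.3% up and 24.8% down are the background for every gene list that follows.

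**Figure D1:**
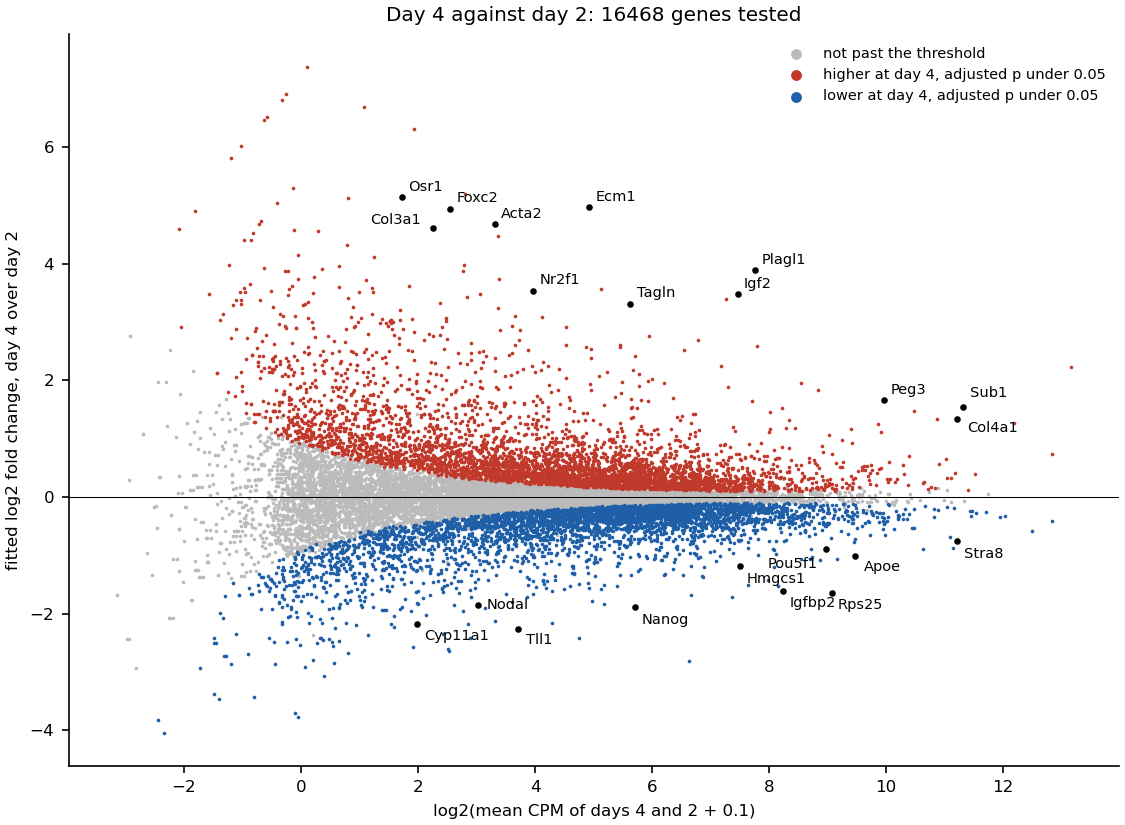
Fitted log2 fold change of day 4 over day 2 against the log2 mean level of both days, one point per tested gene (16468 genes, red higher and blue lower at day 4 at adjusted p under 0.05, grey not past it). Black points with names are genes described in the text; large rises reach further from 0 than large falls, with 304 genes up and 66 down by at least 4-fold.

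Several of the largest rises were from near silence, while Plagl1 and Igf2, described below, were among the 15 largest from higher levels. Nepn (ENSMUSG00000038624.13, chromosome 10, 52388972 to 52404625, GRCm38), which encodes nephrocan, a leucine-rich secreted protein of early gut endoderm, had 12.9, 13.8 and 13.6 CPM at day 4, against 0.379, 0.563 and 0.0909 CPM at day 2 (log2 5.19 ± 0.24, adjusted p = 1.29e-20). Osr1 (ENSMUSG00000048387.8, chromosome 12, 9570116 to 9581500, GRCm38), a zinc finger factor of intermediate and lateral mesoderm, had 6.19, 6.15 and 6.39 CPM at day 4, against 0.227, 0.161 and 0.0909 CPM at day 2 (log2 5.15 ± 0.32, adjusted p = 2.64e-16). In both genes every library of day 4 stood far above every library of day 2. The matrix protein gene Ecm1 averaged 58.7 ± 4.49 CPM at day 4 and 1.84 ± 0.310 CPM at day 2 (log2 4.97 ± 0.11). Others among the 15 largest rises were the chemokine gene Cxcl12 (3.97 ± 0.20), Shisa3, which encodes an antagonist of Wnt and FGF receptors (3.73 ± 0.17), and the nuclear receptor gene Nr2f1 (3.54 ± 0.14). Ugt2b34 (4.48 ± 0.17) belongs to a family of near-identical glucuronosyltransferase genes, so its counts are uncertain.

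The largest falls were smaller in size. Cacng6, a calcium channel subunit, averaged 1.58 ± 0.718 CPM at day 4 and 9.72 ± 0.553 CPM at day 2 (log2 -2.64 ± 0.20), and Nt5e, the ectonucleotidase CD73, 1.07 ± 0.262 CPM at day 4 and 6.26 ± 0.284 CPM at day 2 (log2 -2.57 ± 0.23). Tll1 (a BMP-1-like protease, -2.26 ± 0.12), Cyp11a1 (the side-chain cleavage enzyme of steroid synthesis, -2.17 ± 0.22) and Prph (the intermediate filament peripherin, -2.15 ± 0.10) fell as well. In CPM rather than fold, the largest falls included Mdk, a heparin-binding growth factor, with 1604 ± 44.00 CPM at day 4, against 2944 ± 102 CPM at day 2 (log2 -0.88 ± 0.04). Apart from Gm42418 and the mitochondrial genome, the largest rises in CPM were those of Sub1, a transcription coactivator, with 3807 ± 291 CPM at day 4, against 1307 ± 105 CPM at day 2 (log2 1.54 ± 0.07), and Col4a1.

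Pluripotency genes fell. Of 16 core pluripotency genes, 4 rose, 12 fell and 0 did not pass (median log2 -0.53). All 16 had CPM that did not overlap between the days, against 55.7% of all genes tested. Nanog (ENSMUSG00000012396.12, chromosome 6, 122707489 to 122714633, GRCm38) had 23.1, 23.2 and 20.02 CPM at day 4, against 82.1, 80.5 and 86.2 CPM at day 2 (log2 -1.89 ± 0.07, adjusted p = 9.81e-25). Pou5f1, which encodes Oct4, had 359, 358 and 340.1 CPM at day 4, against 658, 660.2 and 645 CPM at day 2 (log2 -0.89 ± 0.04). Both genes were low in every library of day 4, Nanog 3.71-fold and Pou5f1 1.86-fold below day 2. Sox2 averaged 125 ± 1.38 CPM at day 4 and 181 ± 5.09 CPM at day 2 (log2 -0.54 ± 0.05). Utf1, a chromatin factor of ES cells, fell by more (-1.85 ± 0.16). The 4 that rose were Tdgf1 (0.84 ± 0.08), the Nodal co-receptor, Dppa3 (1.58 ± 0.14), a maternal factor that protects DNA methylation, and the RNA-binding genes Lin28a (0.28 ± 0.05) and L1td1 (0.20 ± 0.05). Tdgf1 averaged 22.02 ± 0.775 CPM at day 4, against 12.2 ± 0.583 CPM at day 2, a small part of its 528 ± 22.4 CPM at day 0.

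Of 18 factors that mark the naive state, that of the early epiblast, 0 rose, 16 fell and 2 did not pass (median log2 -0.74). Esrrb, an orphan nuclear receptor of this state, had 30.7, 29.2 and 24.6 CPM at day 4, against 72.3, 68.6 and 73.7 CPM at day 2 (log2 -1.33 ± 0.07), without overlap. Zfp42 (Rex1) averaged 147 ± 2.35 CPM at day 4 and 252 ± 12.8 CPM at day 2 (log2 -0.78 ± 0.05) and Dppa5a 270.1 ± 18.5 CPM at day 4 and 561 ± 3.59 CPM at day 2 (log2 -1.06 ± 0.05). Klf4 moved least of the genes that passed, with 61.3 ± 0.879 CPM at day 4, against 69.5 ± 4.29 CPM at day 2 (log2 -0.18 ± 0.06, adjusted p = 0.00664), and this call was lost without the third library of day 2 (adjusted p = 0.0632). Tbx3 (0.09 ± 0.05) and Fbxo15 (-0.06 ± 0.05) did not pass. The 16 genes of formative and primed pluripotency, the states of the later epiblast, went the same way: 2 rose, 11 fell and 3 did not pass (median log2 -0.89). The factors Otx2 (-1.94 ± 0.29), Pou3f1 (-1.92 ± 0.26) and Etv5 (-1.50 ± 0.11) fell, and so did the de novo DNA methyltransferases Dnmt3b, with 63.3, 57.7 and 60.3 CPM at day 4, against 116, 103 and 116 CPM at day 2 (log2 -0.89 ± 0.06), and Dnmt3a (-0.90 ± 0.04). Dnmt1, the maintenance enzyme, averaged 599 ± 12.5 CPM at day 4 and 599.6 ± 34.97 CPM at day 2 (log2 -0.00 ± 0.05, adjusted p = 0.971). The 2 that rose in this list, Sox11 (1.13 ± 0.07) and Cdh2 (N-cadherin, 1.11 ± 0.09), are also genes of neural and mesenchymal cells.

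**Figure D2:**
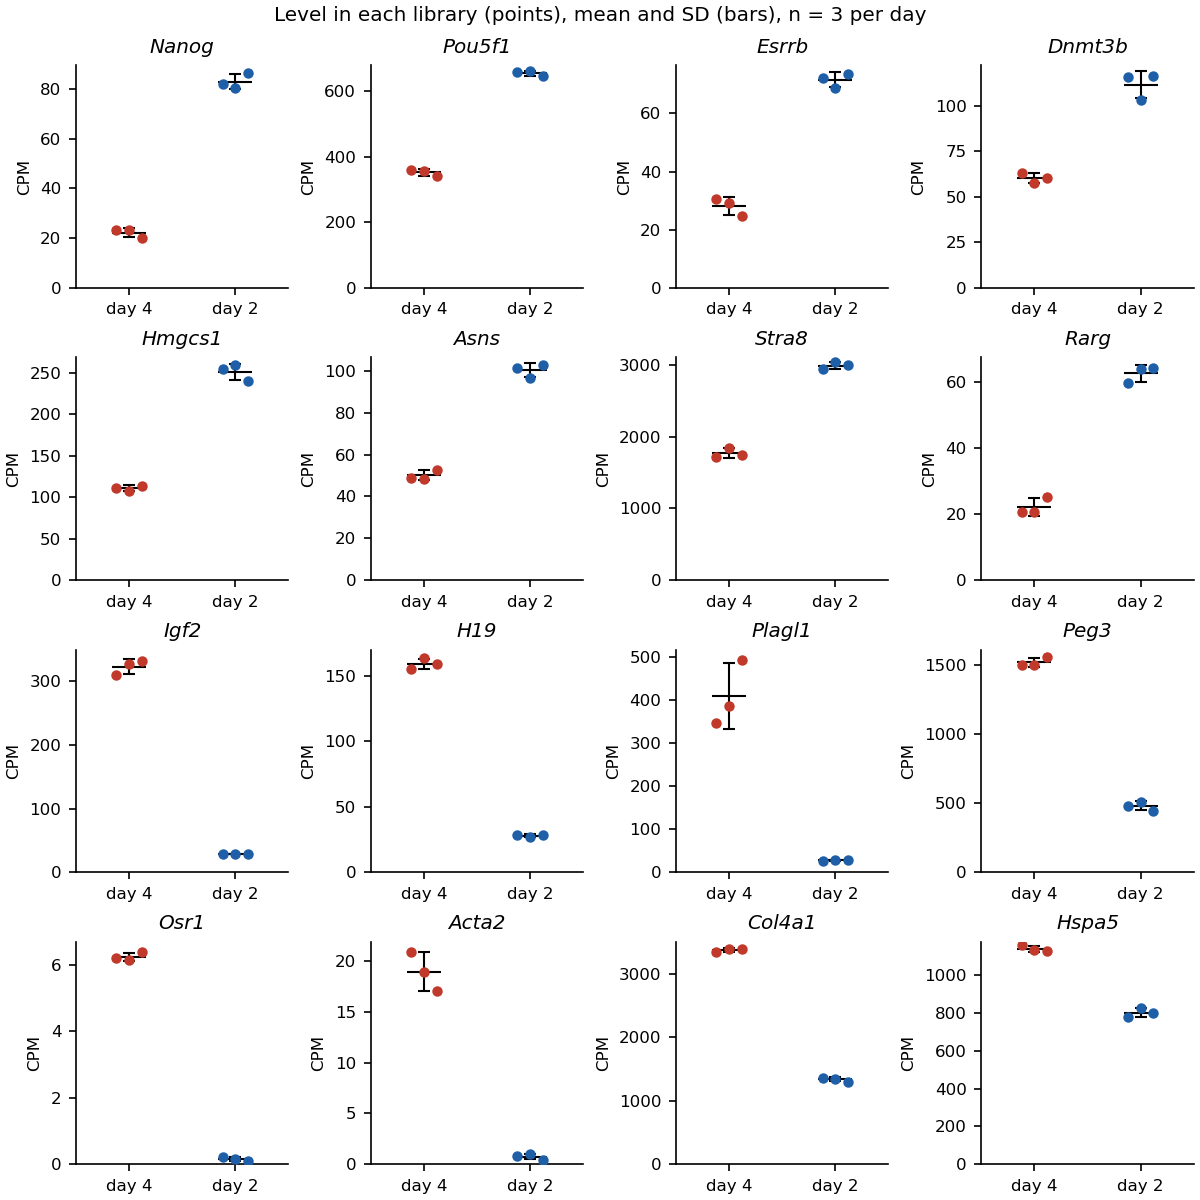
CPM of 16 genes in each library (points) with the mean and SD of the 3 libraries per day (black), day 4 left of day 2, axes from 0. In all 16 genes the points of the days do not overlap, from Nanog at 20.02 to 23.2 CPM at day 4 and 80.5 to 86.2 CPM at day 2 to Igf2 at 310.3 to 332 CPM at day 4 and 28.8 to 29.0 CPM at day 2. Some of these genes were named by a rule that required this, and 55.7% of all genes tested had no overlap.

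Genes of the LIF pathway moved both ways. Of 16 genes of the LIF receptor, STAT3 and their targets, 7 rose, 6 fell and 3 did not pass (median log2 0.04). The receptor gene Lifr averaged 57.5 ± 3.71 CPM at day 4 and 26.5 ± 2.31 CPM at day 2 (log2 1.12 ± 0.07), the feedback inhibitor Socs3 10.9 ± 0.966 CPM at day 4 and 4.43 ± 1.28 CPM at day 2 (log2 1.32 ± 0.14) and the immediate-early gene Junb 14.7 ± 1.62 CPM at day 4 and 5.05 ± 0.162 CPM at day 2 (log2 1.53 ± 0.12). Stat3 rose by less (0.34 ± 0.05). In the same list, the kinase gene Pim1 (-1.07 ± 0.08) and Socs2 (-1.33 ± 0.15) fell.

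Genes of the retinoic acid pathway changed in both directions. Of 12 genes for synthesis and transport, 7 rose, 3 fell and 2 did not pass (median log2 0.66). Aldh1a2 (ENSMUSG00000013584.5, chromosome 9, 71215789 to 71296243, GRCm38), the main retinoic acid-making enzyme of the embryo, averaged 21.5 ± 0.502 CPM at day 4 and 2.78 ± 0.125 CPM at day 2 (log2 2.94 ± 0.12). Aldh1a1 (1.68 ± 0.11), the binding protein gene Crabp1 (2.18 ± 0.10) and the retinol carriers Ttr (1.59 ± 0.11) and Rbp4 (1.13 ± 0.10) rose as well. Crabp2, which delivers retinoic acid to its receptors, had 138, 139 and 136 CPM at day 4, against 374, 392.2 and 337 CPM at day 2 (log2 -1.42 ± 0.06). Of the degrading enzymes, Cyp26b1 averaged 350.5 ± 10.5 CPM at day 4 and 161 ± 7.59 CPM at day 2 (log2 1.12 ± 0.05), and Cyp26a1 did not pass, with 748 ± 12.9 CPM at day 4, against 728 ± 18.5 CPM at day 2 (log2 0.04 ± 0.04, adjusted p = 0.463).

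Among 6 retinoid receptors, 2 rose, 2 fell and 2 did not pass (median log2 -0.32), and the number that rose was 1 without the first library of day 2 or the first or second of day 4. Rarg, a receptor found in undifferentiated ES cells, had 20.5, 20.5 and 25.1 CPM at day 4, against 59.6, 63.8 and 64.3 CPM at day 2 (log2 -1.52 ± 0.07), and Rara fell by less (-0.73 ± 0.11). Rarb, itself a target of the receptors, averaged 136 ± 2.65 CPM at day 4 and 64.6 ± 1.85 CPM at day 2 (log2 1.08 ± 0.05). The summed CPM of the 3 RAR and 3 RXR genes was 220.3 to 224 CPM at day 4 and 196 to 202 CPM at day 2. Exons of Rarb overlap those of Top2b on the other strand over 34.1% of their bases, and whether reads were counted by strand is not labelled. Of 10 other targets of retinoic acid, 1 rose, 7 fell and 2 did not pass (median log2 -0.38). Stra8, a gate of meiosis that retinoic acid induces, had 1709, 1843 and 1746 CPM at day 4, against 2941, 3036 and 2999.5 CPM at day 2 (log2 -0.76 ± 0.04, adjusted p = 1.76e-17). Cdx1, a homeobox gene upstream of Hox genes, averaged 1.69 ± 0.248 CPM at day 4 and 6.93 ± 0.542 CPM at day 2 (log2 -2.03 ± 0.19), and Tgm2, a transglutaminase, was the 1 that rose (0.68 ± 0.07).

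Counts of Hox genes leaned down in HoxB and up in HoxC and HoxD. Of 10 HoxB genes, 1 rose, 5 fell and 4 did not pass (median log2 -0.19). Of 11 HoxA genes, 3 rose, 2 fell and 6 did not pass (median log2 -0.08), and the number that fell was 1 without the third library of day 2 or the second of day 4. Hoxb1, the earliest HoxB gene, averaged 9.18 ± 1.78 CPM at day 4 and 26.96 ± 1.62 CPM at day 2 (log2 -1.57 ± 0.12), and Hoxb6 68.1 ± 2.03 CPM at day 4 and 132 ± 11.9 CPM at day 2 (log2 -0.95 ± 0.06). The exception in HoxB was Hoxb3 (0.75 ± 0.08), of which 52.9% of exon bases overlap the antisense Hoxb3os. Of 8 HoxC genes, 4 rose, 0 fell and 4 did not pass (median log2 0.54), with a median of 0.90 when Hoxc12, which had 1 count over both days, is left out. Of 6 HoxD genes, 4 rose, 0 fell and 2 did not pass (median log2 0.74). Leaving out some single libraries cost the calls of Hoxb9, which fell, and of Hoxd9 and Hoxa13, which rose. Their adjusted p then reached 0.172, 0.0974 and 0.12. Hoxc9 averaged 19.3 ± 0.865 CPM at day 4 and 9.18 ± 0.208 CPM at day 2 (log2 1.07 ± 0.11), Hoxc6 rose by 1.17 ± 0.15 and Hoxc8 by 0.99 ± 0.08 on the log2 scale. Hoxd4 averaged 7.90 ± 0.858 CPM at day 4 and 1.82 ± 0.254 CPM at day 2 (log2 2.11 ± 0.20) and Hoxd3 rose too (2.26 ± 0.30), but both share exons with the gene model Gm28230. The summed CPM of HoxB was 339 to 357 CPM at day 4 and 488 to 518 CPM at day 2, and that of HoxC was 116 to 118 CPM at day 4 and 77.6 to 87.3 CPM at day 2. Of 11 genes of the TALE family, homeobox partners of Hox proteins on DNA, 7 rose, 2 fell and 2 did not pass (median log2 0.34), led by Meis1 with 75.97 ± 1.23 CPM at day 4, against 39.6 ± 0.500 CPM at day 2 (log2 0.94 ± 0.06). Pbx2 (-0.53 ± 0.05) and Tgif1 (-0.41 ± 0.07) were the 2 that fell.

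More transcription factors of mesoderm rose than fell. Of 27 mesoderm factors, 17 rose, 4 fell and 6 did not pass (median log2 0.67). Foxc2, a forkhead factor of mesenchyme and vessels, had 12.5, 11.3 and 9.65 CPM at day 4, against 0.227, 0.402 and 0.455 CPM at day 2 (log2 4.94 ± 0.25, adjusted p = 1.55e-19). Foxf1, of the splanchnic mesoderm around the gut, averaged 12.6 ± 0.390 CPM at day 4 and 0.861 ± 0.243 CPM at day 2 (log2 3.87 ± 0.21), and Tbx2, a T-box repressor, 24.8 ± 2.31 CPM at day 4 and 4.35 ± 0.265 CPM at day 2 (log2 2.52 ± 0.12). Hand2 (2.82 ± 0.25), Tcf21 (2.51 ± 0.38), the kidney and gonad factor Wt1 (1.29 ± 0.15) and Twist2 (3.41 ± 0.38), which is also on the list of fibroblast markers, rose as well. For Twist2, 46.5% of exon bases overlap Gm29100 on the other strand. The 4 that fell included Msx1 (-1.23 ± 0.17). The T-box gene Tbx5 fell too, but lost the call without the first library of day 4 (log2 -1.225, adjusted p = 0.0698). Genes of the primitive streak, through which mesoderm forms in the embryo, were mostly too low to test: 4 of 11 in the table passed the filter, of which Lhx1 rose (1.56 ± 0.26) and Eomes (-0.79 ± 0.11) and Wnt8a (-1.70 ± 0.31) fell. T, the gene of brachyury, averaged 0.176 ± 0.100 CPM at day 4 and 0.525 ± 0.0980 CPM at day 2 (log2 -1.47 ± 0.63, adjusted p = 0.0501), and passed without the second library of day 4 (adjusted p = 0.041). Of 10 cardiac muscle genes, 3 rose, 0 fell and 7 did not pass (median log2 -0.02), and 1 fell without the first library of day 2. In 2 of the 10 the days did not overlap, against 55.7% of all genes tested. The rise of the myosin gene Myl7 (log2 0.70, adjusted p = 0.0415) was lost without some single libraries (adjusted p up to 0.35). Actc1, the cardiac actin, had 114 counts at day 4 and 1 at day 2, 159 times as much in CPM (95% exact binomial interval 27.2 to 6154).

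Smooth muscle genes rose as well. Of 15 contractile genes, 12 rose, 1 fell and 2 did not pass (median log2 0.90). Acta2, the smooth muscle actin, had 20.9, 18.9 and 17.04 CPM at day 4, against 0.758, 0.965 and 0.455 CPM at day 2 (log2 4.68 ± 0.19, adjusted p = 1.12e-22). Myl9, a myosin light chain, had 64.4, 61.2 and 68.4 CPM at day 4, against 5.84, 5.31 and 5.002 CPM at day 2 (log2 3.57 ± 0.09). Tagln, an actin-binding protein, averaged 89.9 ± 7.43 CPM at day 4 and 8.92 ± 1.46 CPM at day 2 (log2 3.31 ± 0.08), and 62.4% of its exon bases overlap the gene model Gm48529 on the other strand. No library of day 4 overlapped one of day 2 in these genes. Cald1 was the 1 that fell (-0.23 ± 0.05). Of 18 fibroblast markers above the filter, 7 rose, 4 fell and 7 did not pass (median log2 0.32), and the number that fell was 2 without the first library of day 2 or the second of day 4. Thy1 (log2 -1.01), Loxl1 (-0.749), Col6a2 (-0.501) and Pdgfrb (-0.437) were the 4 that fell. Among the 7 that rose, Col3a1 averaged 8.98 ± 0.156 CPM at day 4 and 0.348 ± 0.153 CPM at day 2 (log2 4.62 ± 0.24). Col1a1, which rose too, averaged 6.91 ± 2.24 CPM at day 4 and 2.97 ± 0.438 CPM at day 2 (log2 1.18 ± 0.20). Col1a2 did not pass, with 14.8 ± 0.390 CPM at day 4 and 12.9 ± 1.34 CPM at day 2 (log2 0.19 ± 0.10, adjusted p = 0.116). The part of feeder RNA in the mesoderm, smooth muscle and collagen genes was not tested. The promoter of Myl9 is shown because it holds a CArG box, the site of serum response factor in muscle genes (letters C, C, then 6 of A or T, then G, G, on either strand). Promoters here are the 250 bases before the RefSeq start (GRCm38.p6, chr2:156775214-156775463, plus strand), written 5′ to 3′ on the strand of the gene, with the box in capitals.
Myl9: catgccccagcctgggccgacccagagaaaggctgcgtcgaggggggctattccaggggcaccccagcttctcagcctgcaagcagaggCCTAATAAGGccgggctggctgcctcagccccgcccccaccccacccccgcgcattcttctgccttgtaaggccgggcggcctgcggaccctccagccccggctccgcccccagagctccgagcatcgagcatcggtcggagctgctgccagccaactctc
The box begins 161 bases before the start. Of 13 contractile genes with a promoter in the RefSeq table, 2 held such a match, against 1.44% of all tested genes with a promoter and 1.47% of all 32851 promoters. A match is a description of letters and not of binding.

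Genes of endoderm and type IV collagen had some of the largest rises in CPM. Of 26 genes that mark primitive or visceral endoderm, layers that wrap the epiblast, 19 rose, 4 fell and 3 did not pass (median log2 0.66). Their summed level was 14009.8 to 14235 CPM at day 4 and 7545 to 7593 CPM at day 2. Col4a1 (ENSMUSG00000031502.11, chromosome 8, 11198423 to 11312826, GRCm38), a chain of the collagen network of basement membranes, had 3348, 3393 and 3399 CPM at day 4, against 1365, 1346 and 1303 CPM at day 2 (log2 1.34 ± 0.04, adjusted p = 2.45e-25). Its partner chain Col4a2 averaged 2097 ± 43.4 CPM at day 4 and 758 ± 33.7 CPM at day 2 (log2 1.47 ± 0.04), the collagen-binding Sparc 2674 ± 26.05 CPM at day 4 and 1052 ± 36.04 CPM at day 2 (log2 1.34 ± 0.04) and the laminin chain Lama1 929.5 ± 12.04 CPM at day 4 and 416 ± 5.75 CPM at day 2 (log2 1.16 ± 0.04). Among transcription factors of the lineage, Gata4 averaged 23.5 ± 0.504 CPM at day 4 and 14.3 ± 2.29 CPM at day 2 (log2 0.73 ± 0.10), Sox17 rose by 0.84 ± 0.07 and Foxa2 by 1.02 ± 0.09, and Gata6 averaged 70.2 ± 2.56 CPM at day 4 and 71.2 ± 3.36 CPM at day 2 (log2 -0.02 ± 0.06, adjusted p = 0.795). Among the 4 that fell, Amn, part of an endocytic receptor, changed by -0.64 ± 0.10 in log2, and Apoe averaged 471 ± 14.02 CPM at day 4 and 950.1 ± 10.9 CPM at day 2 (log2 -1.01 ± 0.04). Cubn, which forms that receptor with Amn, rose (0.61 ± 0.04). The endoderm factor genes Hnf4a (log2 -0.429, adjusted p = 0.0369) and Foxa1 (log2 -0.221, adjusted p = 0.034) fell. Both calls were lost without some single libraries, among them the second of day 2 (adjusted p = 0.129 and 0.0956). Of 17 genes of laminins, nidogens and other basement membrane proteins, 5 rose, 4 fell and 8 did not pass (median log2 0.05).

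Of 16 genes of apolipoproteins and other plasma proteins, which yolk sac endoderm secretes, 10 rose, 4 fell and 2 did not pass (median log2 0.99). Apoa1 averaged 30.6 ± 1.67 CPM at day 4 and 6.41 ± 1.03 CPM at day 2 (log2 2.24 ± 0.11), Afp, alpha-fetoprotein, 10.2 ± 1.19 CPM at day 4 and 3.38 ± 0.625 CPM at day 2 (log2 1.57 ± 0.17), and Fgb, the fibrinogen beta chain, rose by 1.29 ± 0.12 on the log2 scale. The summed CPM of the list was lower at day 4 in spite of this count, at 682 to 723 CPM at day 4 and 1090.4 to 1109 CPM at day 2, with Apoe the gene of the largest fall in CPM. Apob fell as well (-0.57 ± 0.11). Of 6 GATA factors, 4 rose and 2 did not pass, led by Gata3, with 14.3 ± 2.09 CPM at day 4, against 2.87 ± 0.472 CPM at day 2 (log2 2.32 ± 0.17), Gata5 (1.92 ± 0.28) and Gata2 (1.66 ± 0.28).

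Simple keratins rose, and several junction genes of epithelia fell. Krt19 averaged 75.5 ± 2.35 CPM at day 4 and 12.3 ± 0.808 CPM at day 2 (log2 2.62 ± 0.07), and Krt7 (1.80 ± 0.17), Krt18 (1.42 ± 0.05) and Krt8 (1.04 ± 0.05) rose with it. Cdh1, E-cadherin (-0.42 ± 0.05), the tight junction gene Cldn4 (-0.78 ± 0.08) and the desmosome gene Dsp (-0.62 ± 0.05) fell. In the list of 22 keratin and junction genes, 9 rose, 7 fell and 6 did not pass (median log2 0.12). Of 13 trophectoderm genes, which mark the future placenta, 6 rose, 2 fell and 5 did not pass (median log2 1.02). This median was 0.58 without the first library of day 2. Plac1 rose by 2.91 ± 0.23 and Gata3 is a member too, whereas Tfap2c fell (-1.03 ± 0.16) and Cdx2, the defining factor, averaged 0.879 ± 0.174 CPM at day 4 and 0.450 ± 0.261 CPM at day 2 (log2 1.02 ± 0.48, adjusted p = 0.0773).

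Of 35 collagen genes, 19 rose, 5 fell and 11 did not pass (median log2 0.47), and the summed level was 5846 to 5974 CPM at day 4 and 2551 to 2689 CPM at day 2. Serpinh1, the collagen chaperone HSP47, averaged 1314 ± 59.9 CPM at day 4 and 607 ± 9.67 CPM at day 2 (log2 1.11 ± 0.05) and P4ha1, a prolyl hydroxylase of collagen, 231 ± 7.74 CPM at day 4 and 101 ± 0.761 CPM at day 2 (log2 1.19 ± 0.04), while Loxl1, of the family of enzymes that cross-link collagen and elastin, fell (-0.75 ± 0.14). Of 28 matrix glycoproteins and remodelling enzymes, 16 rose, 6 fell and 6 did not pass (median log2 0.39). The fibrillin gene Fbn2 (1.32 ± 0.08) and the protease gene Adamts1 (2.16 ± 0.14) rose. Spp1, osteopontin, averaged 147 ± 9.33 CPM at day 4 and 419.5 ± 37.3 CPM at day 2 (log2 -1.52 ± 0.06), and Fn1, fibronectin, 370.0 ± 12.7 CPM at day 4 and 774 ± 11.5 CPM at day 2 (log2 -1.07 ± 0.04).

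Neural genes moved unevenly. Of 22 genes of neuroectoderm and neurons, 13 rose, 3 fell and 6 did not pass (median log2 0.47). The proneural factor gene Neurog2 had 92 counts at day 4 and 3 at day 2, 41.0 times as much in CPM (interval 13.8 to 205). Pax6, of neural progenitors, averaged 26.7 ± 2.40 CPM at day 4 and 19.5 ± 0.522 CPM at day 2 (log2 0.44 ± 0.10) and Nes, nestin, rose (0.86 ± 0.07). The 3 that fell were the growth cone genes Stmn2, with 9.66 ± 0.576 CPM at day 4, against 29.4 ± 0.721 CPM at day 2 (log2 -1.61 ± 0.09), and Gap43 (-1.57 ± 0.17), and the early neural factor Sox1 (-0.90 ± 0.09). Of 29 axon guidance genes, which many migrating cells also use, 19 rose, 2 fell and 8 did not pass (median log2 0.74). The receptor genes Robo2, with 8.86 ± 0.131 CPM at day 4, against 1.29 ± 0.222 CPM at day 2 (log2 2.77 ± 0.20), and Nrp1, with 18.8 ± 2.35 CPM at day 4, against 6.01 ± 0.404 CPM at day 2 (log2 1.63 ± 0.12), and the ligand gene Slit3 (2.28 ± 0.16) were among them. Sema3e (-1.14 ± 0.17) and Robo1 (-0.31 ± 0.06) were the 2 that fell.

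Imprinted genes, read from 1 parental copy, held some of the largest changes. Of 29, 19 rose, 4 fell and 6 did not pass (median log2 0.32), with a summed level of 5872 to 6142 CPM at day 4 and 3256 to 3310.4 CPM at day 2. Igf2 (ENSMUSG00000048583.16, chromosome 7, 142650766 to 142666816, GRCm38), a growth factor of the embryo read from the paternal copy, had 310.3, 328 and 332 CPM at day 4, against 29.02, 28.9 and 28.8 CPM at day 2 (log2 3.48 ± 0.05, adjusted p = 4.63e-36). H19, the noncoding RNA next to it that is read from the maternal copy, had 155, 163 and 159 CPM at day 4, against 27.96, 26.6 and 28.6 CPM at day 2 (log2 2.52 ± 0.06). For both neighbours every library of day 4 exceeded every library of day 2, Igf2 by 11.2-fold and H19 by 5.74-fold in the fit. Plagl1, a zinc finger factor known to regulate other imprinted genes, had 346, 385 and 494 CPM at day 4, against 25.7, 28.9 and 27.5 CPM at day 2 (log2 3.89 ± 0.14), and the third library of day 4 was the highest of its day. Peg3 had 1501, 1506 and 1559.7 CPM at day 4, against 482, 511 and 446 CPM at day 2 (log2 1.67 ± 0.05). Exons of Igf2 share 62.8% of their bases with the gene model Gm49394 on the same strand, so the split of reads between them is uncertain.

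In the Dlk1-Meg3 domain, the paternal protein gene Dlk1 rose (2.19 ± 0.07) along with the maternal noncoding RNAs Meg3, with 440.5 ± 11.4 CPM at day 4, against 153 ± 2.52 CPM at day 2 (log2 1.52 ± 0.05), Rian, with 805 ± 33.99 CPM at day 4, against 407 ± 13.4 CPM at day 2 (log2 0.99 ± 0.05), and Mirg (1.67 ± 0.09). Cdkn1c, a maternally read inhibitor of the cell cycle, rose by 2.15 ± 0.12, and 30.7% of its exon bases overlap Gm44732 on the other strand. The 4 that fell were Grb10, an adaptor that dampens insulin signalling, with 6.83 ± 1.04 CPM at day 4, against 22.1 ± 0.415 CPM at day 2 (log2 -1.72 ± 0.12), and Nap1l5 (-0.78 ± 0.11), Snrpn (-0.51 ± 0.05) and Zrsr1 (-0.22 ± 0.05). Mest (0.09 ± 0.05) and Peg10 (0.01 ± 0.04) did not pass, though Mest did without the third library of day 2 (adjusted p = 0.00461). Parental origin was not measured. Of 19 noncoding RNAs, 14 rose, 1 fell and 4 did not pass (median log2 0.51), and the call of the 1 that fell was lost without the first library of day 2. Besides the imprinted ones, Malat1 (0.41 ± 0.06) and Neat1 (0.68 ± 0.05), nuclear RNAs of speckles and paraspeckles, rose.

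The rest of the IGF axis changed in both directions. Igf1 averaged 19.5 ± 1.70 CPM at day 4 and 4.51 ± 0.845 CPM at day 2 (log2 2.097 ± 0.13) and the binding protein gene Igfbp5 40.6 ± 2.43 CPM at day 4 and 5.36 ± 0.338 CPM at day 2 (log2 2.92 ± 0.10). Igfbp2, another binding protein, averaged 149.7 ± 2.65 CPM at day 4 and 456 ± 12.6 CPM at day 2 (log2 -1.61 ± 0.04), and Igf1r, the receptor of both ligands, 27.1 ± 1.62 CPM at day 4 and 26.6 ± 3.20 CPM at day 2 (log2 0.02 ± 0.08, adjusted p = 0.866). Of the 13 genes, 7 rose, 2 fell and 4 did not pass (median log2 0.25).

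Genes of the signalling pathways leaned in different directions. Of 16 genes of Nodal signalling, which keeps the epiblast and patterns mesendoderm, 3 rose, 8 fell and 5 did not pass (median log2 -0.24). Nodal averaged 3.51 ± 0.441 CPM at day 4 and 12.6 ± 1.94 CPM at day 2 (log2 -1.85 ± 0.15), its inhibitor and target Lefty2 1.47 ± 0.224 CPM at day 4 and 5.66 ± 0.734 CPM at day 2 (log2 -1.96 ± 0.22), and the co-factor Foxh1 fell (-1.81 ± 0.22). Of 21 genes of BMP signalling, which patterns mesoderm, 10 rose, 2 fell and 9 did not pass (median log2 0.26). Id1, an inhibitor of helix-loop-helix factors, averaged 92.1 ± 7.41 CPM at day 4 and 29.6 ± 3.37 CPM at day 2 (log2 1.65 ± 0.15), and Id2 (1.53 ± 0.07) and Id3 (2.25 ± 0.12) rose with it. Of 14 genes of the TGF-beta pathway, 7 rose, 3 fell and 4 did not pass (median log2 0.38), with Ltbp1 (1.43 ± 0.08) and Ltbp4 (-1.67 ± 0.11), both latent TGF-beta binding proteins, on opposite sides. Of 14 targets of YAP, which responds to cell tension and density, 9 rose, 2 fell and 3 did not pass (median log2 0.41), and the number that fell was 1 without the second library of day 2. Those that rose included Ankrd1 (1.94 ± 0.30) and Ccn1 (0.91 ± 0.07).

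FGF genes were split. Of 23, 8 rose, 9 fell and 6 did not pass (median log2 -0.41). The receptor gene Fgfr1 averaged 72.7 ± 4.77 CPM at day 4 and 142 ± 3.51 CPM at day 2 (log2 -0.97 ± 0.05) and the phosphatase Dusp6, a feedback target of ERK, 28.02 ± 1.67 CPM at day 4 and 53.9 ± 3.86 CPM at day 2 (log2 -0.95 ± 0.07), while Egr1, an immediate-early target of ERK, averaged 15.01 ± 0.846 CPM at day 4 and 2.79 ± 0.256 CPM at day 2 (log2 2.42 ± 0.16). Of 23 Wnt genes, 7 rose, 7 fell and 9 did not pass (median log2 0.00), with the ligand Wnt5a (2.30 ± 0.17) and the inhibitor Frzb (2.80 ± 0.23) up. The Wnt receptor gene Fzd10 fell (log2 -1.88). The count of Wnt genes that fell was 4 without the second library of day 4. Among 14 Hedgehog genes, 6 rose, 3 fell and 5 did not pass (median log2 0.16), with the co-receptor Gas1 at 124 ± 6.08 CPM at day 4 and 47.7 ± 2.30 CPM at day 2 (log2 1.38 ± 0.05) and the target Gli1 up (1.07 ± 0.13). Of 13 Notch genes, 5 rose, 1 fell and 7 did not pass (median log2 0.13), and the call of the 1 that fell was lost without the first or second library of either day. The rise of Notch1 (log2 0.184, adjusted p = 0.0468) was also lost without some single libraries (adjusted p up to 0.156). Those that rose included the ligand Dll4 (1.84 ± 0.52) and the targets Hey1 (1.16 ± 0.25) and Hes1 (0.94 ± 0.10).

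**Figure D3:**
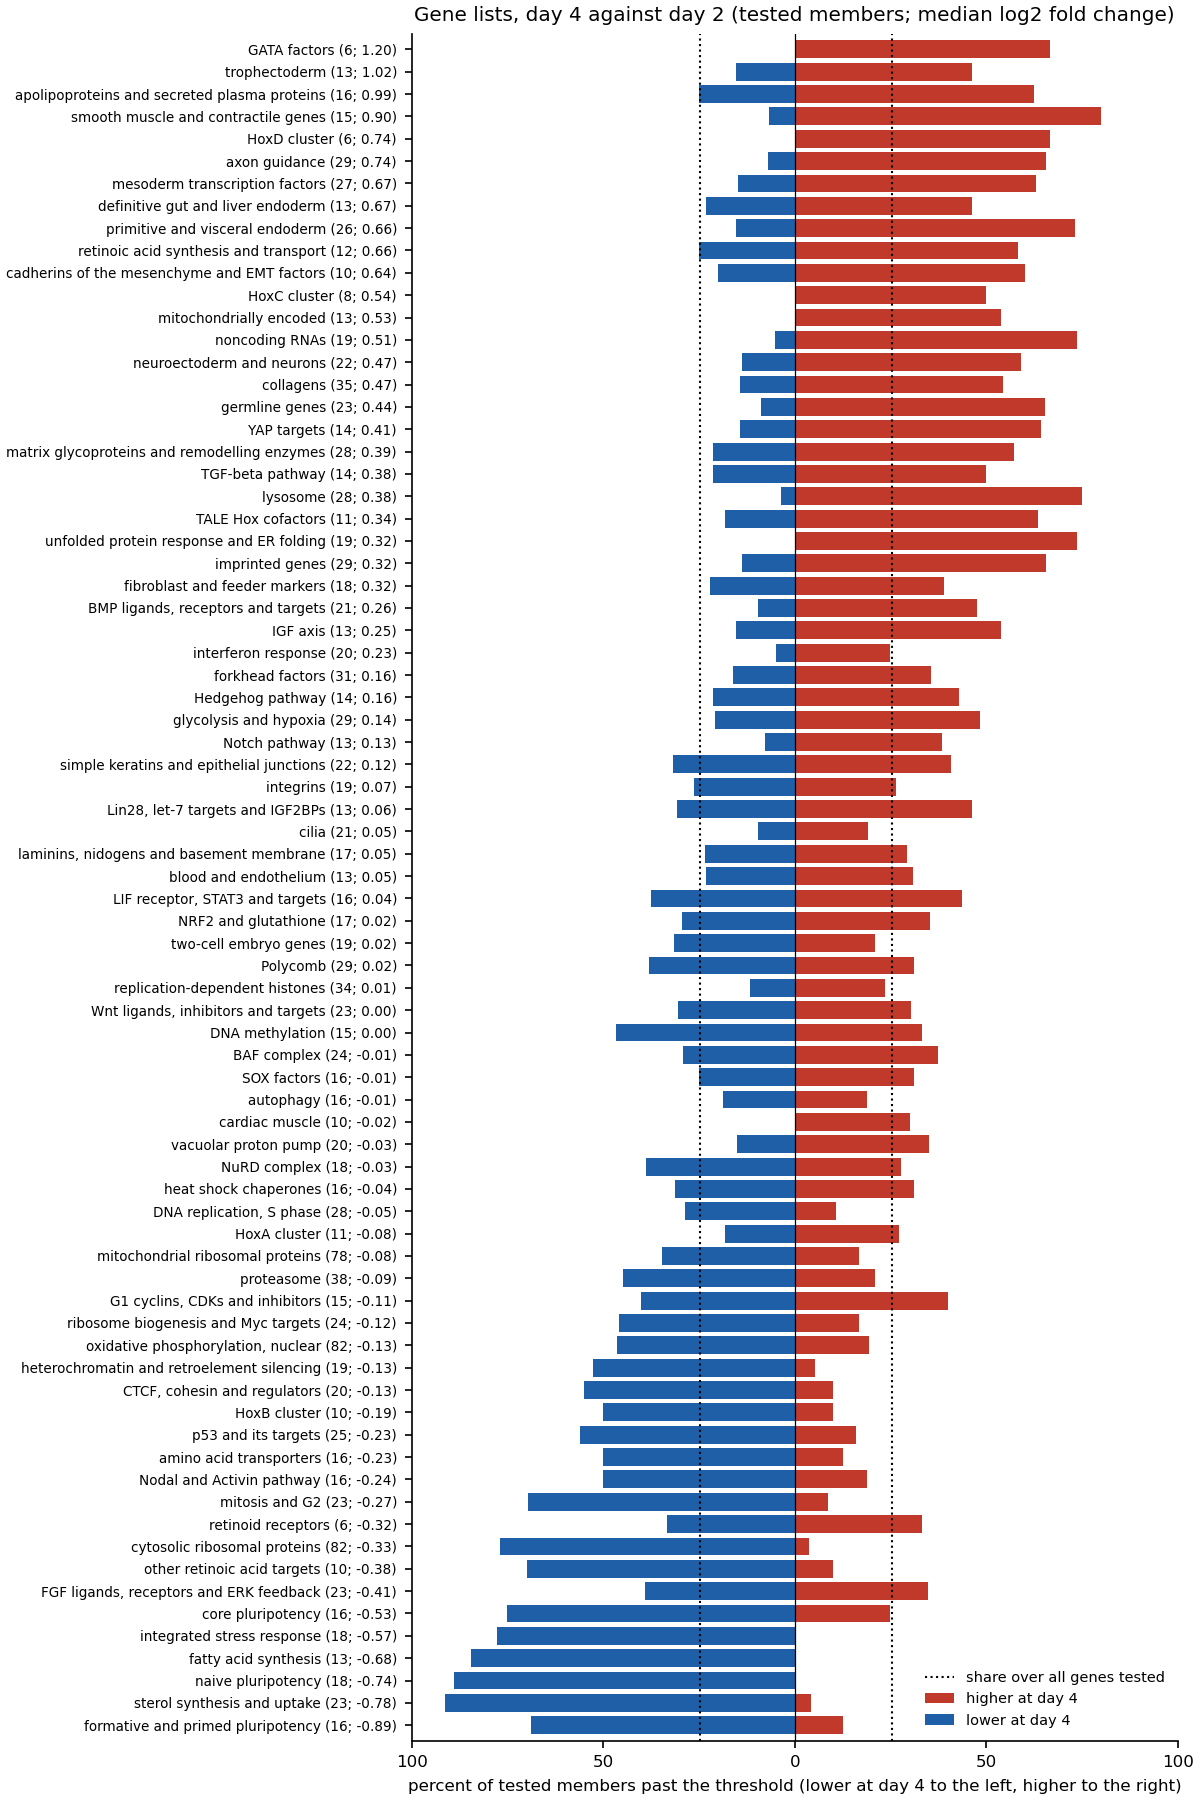
Percent of tested members that passed adjusted p under 0.05, higher at day 4 to the right (red) and lower to the left (blue), for every list with at least 6 tested members, in order of the median log2 fold change; each label gives the number tested and that median. Dotted lines mark the shares over all genes tested, 25.3% up and 24.8% down.

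Genes of lipid synthesis fell almost throughout. Of 23 genes of sterol synthesis and uptake, 1 rose, 21 fell and 1 did not pass (median log2 -0.78), and of 13 genes of fatty acid synthesis, 0 rose, 11 fell and 2 did not pass (median log2 -0.68). Hmgcs1 (ENSMUSG00000093930.2, chromosome 13, 119690379 to 119708260, GRCm38), which makes the precursor of mevalonate, had 112, 108 and 114 CPM at day 4, against 254, 259.6 and 241 CPM at day 2 (log2 -1.18 ± 0.05, adjusted p = 4.48e-23). Insig1, which holds the sterol sensor in the endoplasmic reticulum, was the exception, with 101 ± 4.03 CPM at day 4, against 86.7 ± 3.84 CPM at day 2 (log2 0.22 ± 0.05), and Sc5d (-0.12 ± 0.07) did not pass. Among fatty acid genes, Elovl6, an elongase, averaged 65.3 ± 5.45 CPM at day 4 and 168 ± 3.36 CPM at day 2 (log2 -1.36 ± 0.05), and the desaturase gene Scd1 fell (-1.32 ± 0.06). Acaca (-0.79 ± 0.05) and Fasn (-0.57 ± 0.04), which start and run the building of the chain, fell as well. The promoter of Hmgcs1 (chr13:119690101-119690350, plus strand) is shown because of 15 sterol genes with a promoter in the table it was the 1 whose promoter held the letters TCACNCCAC, a form of the sterol regulatory element.
Hmgcs1: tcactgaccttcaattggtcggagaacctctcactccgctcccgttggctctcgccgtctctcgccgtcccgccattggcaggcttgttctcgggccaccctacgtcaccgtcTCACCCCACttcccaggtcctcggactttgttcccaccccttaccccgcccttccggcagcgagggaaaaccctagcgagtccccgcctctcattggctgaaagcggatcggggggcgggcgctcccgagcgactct
The element, in capitals, begins 137 bases before the start. No promoter of 10 fatty acid genes held it, against 1.26% of all tested genes with a promoter and 1.05% of all promoters.

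Genes of the integrated stress response, by which the factor ATF4 raises amino acid supply, also fell. Of 18 genes, 0 rose, 14 fell and 4 did not pass (median log2 -0.57). Asns, asparagine synthetase, had 48.98, 48.5 and 52.8 CPM at day 4, against 101, 96.6 and 103 CPM at day 2 (log2 -1.01 ± 0.06, adjusted p = 5.71e-18). Atf4 itself averaged 151 ± 4.16 CPM at day 4 and 232 ± 2.62 CPM at day 2 (log2 -0.62 ± 0.04), the stress factor Nupr1 2.67 ± 0.871 CPM at day 4 and 10.8 ± 0.440 CPM at day 2 (log2 -1.96 ± 0.18), and the pseudokinase gene Trib3 fell (-1.11 ± 0.12). Of 16 amino acid transporters, 2 rose, 8 fell and 6 did not pass (median log2 -0.23), and the number that rose was 1 without replicate 1 or 3 of either day. Slc7a5, the large neutral transporter, averaged 49.3 ± 1.20 CPM at day 4 and 115 ± 3.21 CPM at day 2 (log2 -1.23 ± 0.05), and Slc7a3 (-1.47 ± 0.19) and Slc1a5 (-0.93 ± 0.09) fell as well. The promoter of Asns (chr6:7693210-7693459, minus strand) is shown for its amino acid response element, with the letters TGATGNAA in capitals.
Asns: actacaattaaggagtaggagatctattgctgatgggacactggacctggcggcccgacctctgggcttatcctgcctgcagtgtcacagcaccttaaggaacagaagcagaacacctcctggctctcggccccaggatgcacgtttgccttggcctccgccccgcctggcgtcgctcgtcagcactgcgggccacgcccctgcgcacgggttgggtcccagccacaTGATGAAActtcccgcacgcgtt
The match begins 23 bases before the start. Of 17 members with a promoter, 4 held these letters, against 2.34% of all tested genes with a promoter and 3.45% of all promoters.

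Genes of the unfolded protein response, which serves folding in the endoplasmic reticulum, rose. Of 19 genes, 14 rose, 0 fell and 5 did not pass (median log2 0.32), and the summed level was 9124 to 9396 CPM at day 4 and 7007 to 7349 CPM at day 2. Hspa5 (ENSMUSG00000026864.13, chromosome 2, 34771970 to 34777547, GRCm38), the chaperone BiP, had 1158, 1130.5 and 1127 CPM at day 4, against 780.5, 825 and 798 CPM at day 2 (log2 0.51 ± 0.04, adjusted p = 9.6e-13). Hsp90b1, its partner GRP94, averaged 2293 ± 32.3 CPM at day 4 and 1552 ± 33.9 CPM at day 2 (log2 0.56 ± 0.04), the disulfide isomerase Pdia6 923 ± 28.9 CPM at day 4 and 672 ± 24.98 CPM at day 2 (log2 0.46 ± 0.04) and the secreted factor Manf 132 ± 9.74 CPM at day 4 and 76.7 ± 2.63 CPM at day 2 (log2 0.79 ± 0.05). These 4 genes changed by under 2-fold, with no library of day 4 overlapping one of day 2. The days were likewise without overlap in 15 of the 19 genes, against 55.7% of all genes tested. The promoters of Hspa5, Hsp90b1 and Pdia6 are shown because they hold the ER stress element, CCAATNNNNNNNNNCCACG on either strand, in capitals: Hspa5 at chr2:34771840-34772089, plus strand, Hsp90b1 at chr10:86705445-86705694, minus strand, and Pdia6 at chr12:17266339-17266588, plus strand.
Hspa5: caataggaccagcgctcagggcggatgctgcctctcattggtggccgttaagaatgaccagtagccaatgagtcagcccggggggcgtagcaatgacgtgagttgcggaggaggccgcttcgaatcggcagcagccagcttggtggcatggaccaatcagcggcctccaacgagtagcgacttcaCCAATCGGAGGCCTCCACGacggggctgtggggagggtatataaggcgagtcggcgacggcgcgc
Hsp90b1: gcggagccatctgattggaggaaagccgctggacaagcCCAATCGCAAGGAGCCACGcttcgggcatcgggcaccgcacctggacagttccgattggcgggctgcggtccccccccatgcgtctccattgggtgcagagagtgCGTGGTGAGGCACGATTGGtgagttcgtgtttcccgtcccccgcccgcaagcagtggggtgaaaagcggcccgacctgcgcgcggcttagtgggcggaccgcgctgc
Pdia6: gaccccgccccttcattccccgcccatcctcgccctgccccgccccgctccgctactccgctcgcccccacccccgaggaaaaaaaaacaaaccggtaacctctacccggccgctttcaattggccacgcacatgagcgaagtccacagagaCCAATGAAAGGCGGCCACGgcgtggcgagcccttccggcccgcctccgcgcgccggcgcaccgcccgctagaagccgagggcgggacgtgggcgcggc
The element begins 65 bases before the start in Hspa5, 212 and 107 bases before it in Hsp90b1, which holds it on both strands, and 98 bases before it in Pdia6. Of 16 members with a promoter in the table, 8 held it, against 0.184% of all tested genes with a promoter and 0.113% of all promoters.

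Of 28 lysosomal genes, which digest what cells take up or recycle, 21 rose, 1 fell and 6 did not pass (median log2 0.38). The hexosaminidase gene Hexa averaged 102 ± 2.12 CPM at day 4 and 56.7 ± 0.695 CPM at day 2 (log2 0.85 ± 0.05), and Cd63 (1.18 ± 0.07), Lamp2 (0.72 ± 0.05) and the protease gene Ctsb (0.61 ± 0.05) rose as well. Scarb2, a receptor that carries an enzyme to the lysosome, was the 1 that fell (-0.39 ± 0.06). Of 29 glycolysis and hypoxia genes, 14 rose, 6 fell and 9 did not pass (median log2 0.14). Ldha, lactate dehydrogenase, averaged 622 ± 26.7 CPM at day 4 and 338 ± 8.40 CPM at day 2 (log2 0.88 ± 0.04), and the glucose transporter gene Slc2a1 171 ± 8.79 CPM at day 4 and 261 ± 20.6 CPM at day 2 (log2 -0.61 ± 0.05).

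By the number of genes, nuclear genes of the respiratory chain leaned down and mitochondrial ones up. The summed level of the nuclear genes overlapped between the days, at 12278 to 12581 CPM at day 4 and 12273 to 12807 CPM at day 2. Of 82 nuclear genes, 16 rose, 38 fell and 28 did not pass (median log2 -0.13), and of 13 genes encoded in the mitochondrion, 7 rose, 0 fell and 6 did not pass (median log2 0.53). mt-Co1 averaged 6609 ± 337 CPM at day 4 and 2755 ± 41.3 CPM at day 2 (log2 1.26 ± 0.04) and mt-Cytb 9176 ± 503 CPM at day 4 and 5512 ± 314 CPM at day 2 (log2 0.74 ± 0.05). The mitochondrial share of all counts and that of Gm42418 moved with the days, as given above, and their part in the mitochondrial values was not tested. Without Gm42418 and the mitochondrially encoded genes, 8227 genes changed. Ribosomal protein genes fell as a family: of 82 of the cytosolic ribosome, 3 rose, 63 fell and 16 did not pass (median log2 -0.33), with summed levels of 67845 to 69524 CPM at day 4 and 81277 to 83494 CPM at day 2. Rps25 averaged 262 ± 17.3 CPM at day 4 and 814 ± 77.6 CPM at day 2 (log2 -1.64 ± 0.07), much more than the median of the family, and the 3 that rose were Rpl10l (0.30 ± 0.06), Rpl39l (0.57 ± 0.11) and Rpl37 (0.31 ± 0.04). Processed pseudogenes such as Rps12-ps4 (-2.42 ± 0.12) resemble these genes, and reads may be split between them. Among 78 proteins of the mitochondrial ribosome, 13 rose, 27 fell and 38 did not pass (median log2 -0.08).

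Heat shock chaperones were split: of 16, 5 rose, 5 fell and 6 did not pass (median log2 -0.04). Hsp90aa1 averaged 1678 ± 30.4 CPM at day 4 and 2692 ± 72.6 CPM at day 2 (log2 -0.68 ± 0.04) and the small heat shock gene Hspb1 fell (-1.06 ± 0.06), while the constitutive chaperone gene Hspa8 rose (0.40 ± 0.04). Of 20 interferon response genes, 5 rose, 1 fell and 14 did not pass (median log2 0.23), with the antigen-presentation gene B2m up (0.59 ± 0.07), and the number that fell was 2 without the first library of day 2 or the third of day 4. Among single genes of redox defence, Gpx3, a secreted glutathione peroxidase, averaged 711 ± 35.4 CPM at day 4 and 199.9 ± 18.7 CPM at day 2 (log2 1.83 ± 0.07).

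**Figure D4:**
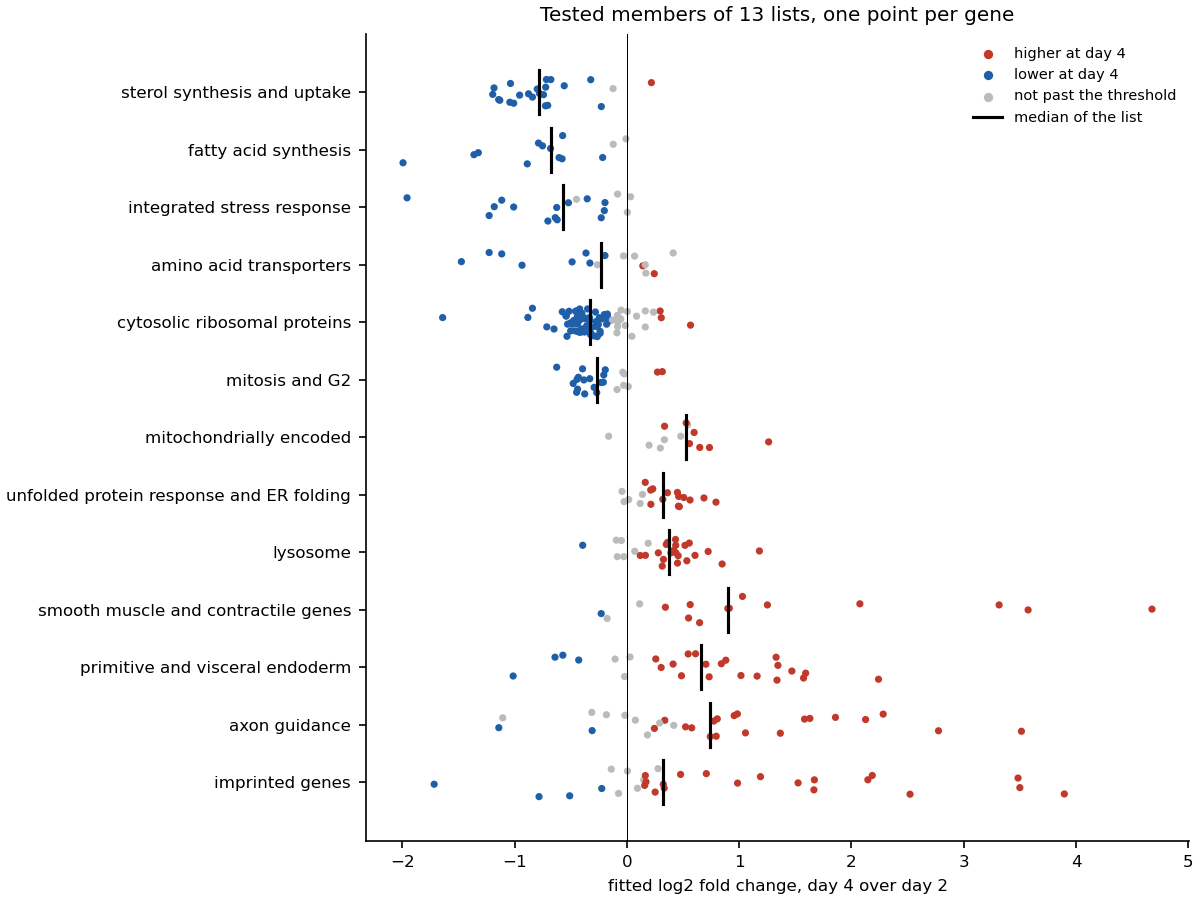
Fitted log2 fold change, day 4 over day 2, of each tested member of 13 lists (points, red higher, blue lower, grey not past adjusted p under 0.05), with the median of the list as a black bar. Sterol and fatty acid synthesis, the integrated stress response and ribosomal proteins lie mostly left of 0 (medians -0.78, -0.68, -0.57 and -0.33), and smooth muscle, axon guidance and endoderm mostly right of it (0.90, 0.74 and 0.66).

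Genes of cell division fell by small amounts. Of 23 genes of mitosis and G2, 2 rose, 16 fell and 5 did not pass (median log2 -0.27). Cdk1, the kinase that drives mitosis, averaged 258 ± 10.6 CPM at day 4 and 399 ± 47.5 CPM at day 2 (log2 -0.62 ± 0.08), and Ccnb2 (-0.48 ± 0.05), Cenpf (-0.45 ± 0.05) and Cdc20 (-0.43 ± 0.05) fell. Birc5 (0.27 ± 0.05) and Bub1b (0.32 ± 0.07) were the 2 that rose, and Mki67, the proliferation marker, averaged 408 ± 11.2 CPM at day 4 and 417 ± 6.28 CPM at day 2 (log2 -0.03 ± 0.04, adjusted p = 0.615). Of 28 genes of DNA replication, 3 rose, 8 fell and 17 did not pass (median log2 -0.05). In G1, Ccnd2, a D-type cyclin, averaged 102 ± 10.4 CPM at day 4 and 25.3 ± 2.96 CPM at day 2 (log2 2.02 ± 0.09), and the inhibitor Cdkn2b rose (1.19 ± 0.13) as did Cdkn1c. Of 25 p53 genes and targets, 4 rose, 14 fell and 7 did not pass (median log2 -0.23), with Plk3 (-1.57 ± 0.10), Trp53inp1 (-0.75 ± 0.06) and Ccng1 (-0.53 ± 0.04) down and Btg2 (0.77 ± 0.11) and Mdm4 (0.86 ± 0.04) up.

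Of 23 germline genes, 15 rose, 2 fell and 6 did not pass (median log2 0.44). Rhox5, a homeobox gene of the testis that DNA methylation silences in other cells, averaged 463 ± 18.01 CPM at day 4 and 184 ± 7.68 CPM at day 2 (log2 1.33 ± 0.05), and Dazl, an RNA-binding protein of germ cells, 308 ± 16.9 CPM at day 4 and 190.1 ± 8.69 CPM at day 2 (log2 0.70 ± 0.05). The meiotic cohesin genes Smc1b (1.08 ± 0.06) and Stag3 (0.77 ± 0.06) rose, and Rec8, another meiotic cohesin (-0.37 ± 0.06), and Meioc (-0.30 ± 0.05) were the 2 that fell. Of 19 genes of the 2-cell embryo, 4 rose, 6 fell and 9 did not pass (median log2 0.02). Zscan4d, which protects telomeres in ES cells, averaged 106 ± 1.37 CPM at day 4 and 79.1 ± 5.03 CPM at day 2 (log2 0.42 ± 0.05), but it has near-identical copies and its counts are uncertain. The number of 2-cell genes that rose was 2 without the second library of day 4.

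Of 18 genes of the NuRD complex, which removes acetyl groups from histones and moves nucleosomes, 5 rose, 7 fell and 6 did not pass (median log2 -0.03). Mbd3, its methyl-CpG-binding-domain subunit, averaged 199 ± 3.47 CPM at day 4 and 205 ± 11.4 CPM at day 2 (log2 -0.04 ± 0.05, adjusted p = 0.49), and Chd4, its motor, 881 ± 44.2 CPM at day 4 and 893 ± 42.2 CPM at day 2 (log2 -0.02 ± 0.04, adjusted p = 0.749). Neither passed the test. Its deacetylase paralogs went apart, with Hdac1 at 111 ± 4.95 CPM at day 4 and 174 ± 2.78 CPM at day 2 (log2 -0.65 ± 0.05) and Hdac2 up (0.25 ± 0.07). Mbd2 (0.29 ± 0.06), Mta2 (0.44 ± 0.05), Mta1 (0.17 ± 0.04) and Rbbp7 (0.32 ± 0.04) also rose, while Mta3 (-0.39 ± 0.05), Cdk2ap1 (-0.51 ± 0.06) and Chd5 (-1.03 ± 0.10) fell.

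CTCF, which anchors chromatin loops, and cohesin, which extrudes them, leaned downward: of 20 genes, 2 rose, 11 fell and 7 did not pass (median log2 -0.13). Ctcf had 210.4, 211 and 205 CPM at day 4, against 229, 236 and 222 CPM at day 2 (log2 -0.13 ± 0.04, adjusted p = 0.0109), and this call was lost without the second library of day 2 (adjusted p = 0.0578). The cohesin ring genes Rad21, with 715 ± 10.4 CPM at day 4, against 966 ± 10.3 CPM at day 2 (log2 -0.43 ± 0.04), and Smc3, with 357 ± 6.34 CPM at day 4, against 515 ± 13.5 CPM at day 2 (log2 -0.53 ± 0.04), fell by more. The 2 that rose were Ctcfl, the germline paralog of Ctcf, with 15.5 ± 1.54 CPM at day 4, against 7.89 ± 0.379 CPM at day 2 (log2 0.96 ± 0.12), and Cdca5, which holds sister chromatids together (0.27 ± 0.07).

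Of 19 genes of heterochromatin and retroelement silencing, 1 rose, 10 fell and 8 did not pass (median log2 -0.13), led by Cbx3, a heterochromatin protein 1, with 72.2 ± 2.64 CPM at day 4, against 144 ± 11.5 CPM at day 2 (log2 -0.998 ± 0.06), and with Trim28 (-0.40 ± 0.05) and Atrx (-0.37 ± 0.04) among the others. Chaf1a was the 1 that rose (0.30 ± 0.08; 2 rose without the third library of day 2), and 52.5% of its exon bases overlap Ubxn6 on the other strand. Of 29 Polycomb genes, 9 rose, 11 fell and 9 did not pass (median log2 0.02), with the PRC2 genes Jarid2, at 234 ± 5.93 CPM at day 4 and 390.5 ± 4.58 CPM at day 2 (log2 -0.74 ± 0.04), and Suz12 (-0.70 ± 0.05) down. Of 15 genes of DNA methylation, 5 rose, 7 fell and 3 did not pass (median log2 -0.00).

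The step was then compared with the steps before and after it, by contrasts of log2 changes in one fit of all 12 libraries. The first step (day 2 over day 0) shares the day 2 libraries with it and the last step (day 6 over day 4) shares the day 4 libraries, so the 3 sets of values are not independent, and a high value on a shared day moves both steps in opposite directions. For 8770 genes (53.3%) the second step differed from the first, 4097 (24.9%) with the second above the first and 4673 (28.4%) below it. With library size alone as scaling, the split was 3237 above and 5810 below. From the last step it differed for 5613 genes (34.1%), 2800 above (17.0%) and 2813 below (17.1%).

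Several genes turned at day 2. Hmgcs1 averaged 139.5 ± 5.37, 252 ± 9.74, 111 ± 3.29 and 91.3 ± 2.69 CPM at days 0, 2, 4 and 6, a difference of second minus first step of -2.03 ± 0.08 in log2 (adjusted p = 9.5e-24). Stra8 averaged 177 ± 5.99, 2992 ± 47.9, 1766 ± 68.9 and 539.5 ± 27.7 CPM (second minus first step -4.84 ± 0.08, adjusted p = 2.76e-36), and Hoxb6 averaged 0.128 ± 0.127, 132 ± 11.9, 68.1 ± 2.03 and 43.9 ± 2.95 CPM. All 3 genes were highest at day 2. Cyp26b1 kept rising, by less on the log2 scale than in the first step, with 0.751 ± 0.374, 161 ± 7.59, 350.5 ± 10.5 and 407 ± 15.5 CPM (-6.62 ± 0.17, adjusted p = 2.23e-29). Tdgf1, with 528 ± 22.4, 12.2 ± 0.583, 22.02 ± 0.775 and 50.4 ± 2.18 CPM (6.27 ± 0.13, adjusted p = 3.53e-32), and Socs3, with 129 ± 2.67, 4.43 ± 1.28, 10.9 ± 0.966 and 25.5 ± 0.777 CPM (6.20 ± 0.21, adjusted p = 7.44e-25), turned the other way. Other genes turned at day 4. Nepn averaged 0.0438 ± 0.0758, 0.344 ± 0.238, 13.4 ± 0.505 and 5.79 ± 0.462 CPM (second minus last step 6.40 ± 0.33, adjusted p = 2.44e-18), and Sub1 averaged 1039 ± 78.1, 1307 ± 105, 3807 ± 291 and 1907 ± 104 CPM (2.54 ± 0.11, adjusted p = 2.03e-12). mt-Cytb was highest at day 4 too, with 5106 ± 178, 5512 ± 314, 9176 ± 503 and 5195 ± 314 CPM (1.56 ± 0.08).

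Another set kept one direction through the course. Igf2 averaged 3.23 ± 0.298, 28.9 ± 0.106, 323 ± 11.5 and 957 ± 40.8 CPM, with log2 changes of 3.15, 3.48 and 1.57 in the 3 steps; the second step exceeded the last by 1.92 ± 0.08 (adjusted p = 6.41e-21), and its difference from the first, 0.33 ± 0.17, did not pass (adjusted p = 0.141). Col4a1 averaged 465 ± 13.9, 1338 ± 31.4, 3380.1 ± 27.8 and 5365 ± 243 CPM, and its second step exceeded the last by 0.67 ± 0.07. Acta2 averaged 0.0799 ± 0.0695, 0.726 ± 0.256, 18.96 ± 1.94 and 63.2 ± 5.47 CPM and exceeded it by 2.95 ± 0.27. Nanog kept falling, with changes of -1.73, -1.89 and -1.37, of which the second minus the first did not pass (-0.16 ± 0.10, adjusted p = 0.181) and differed from the last by -0.52 ± 0.15 (second minus last, adjusted p = 0.00534).

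**Figure D5:**
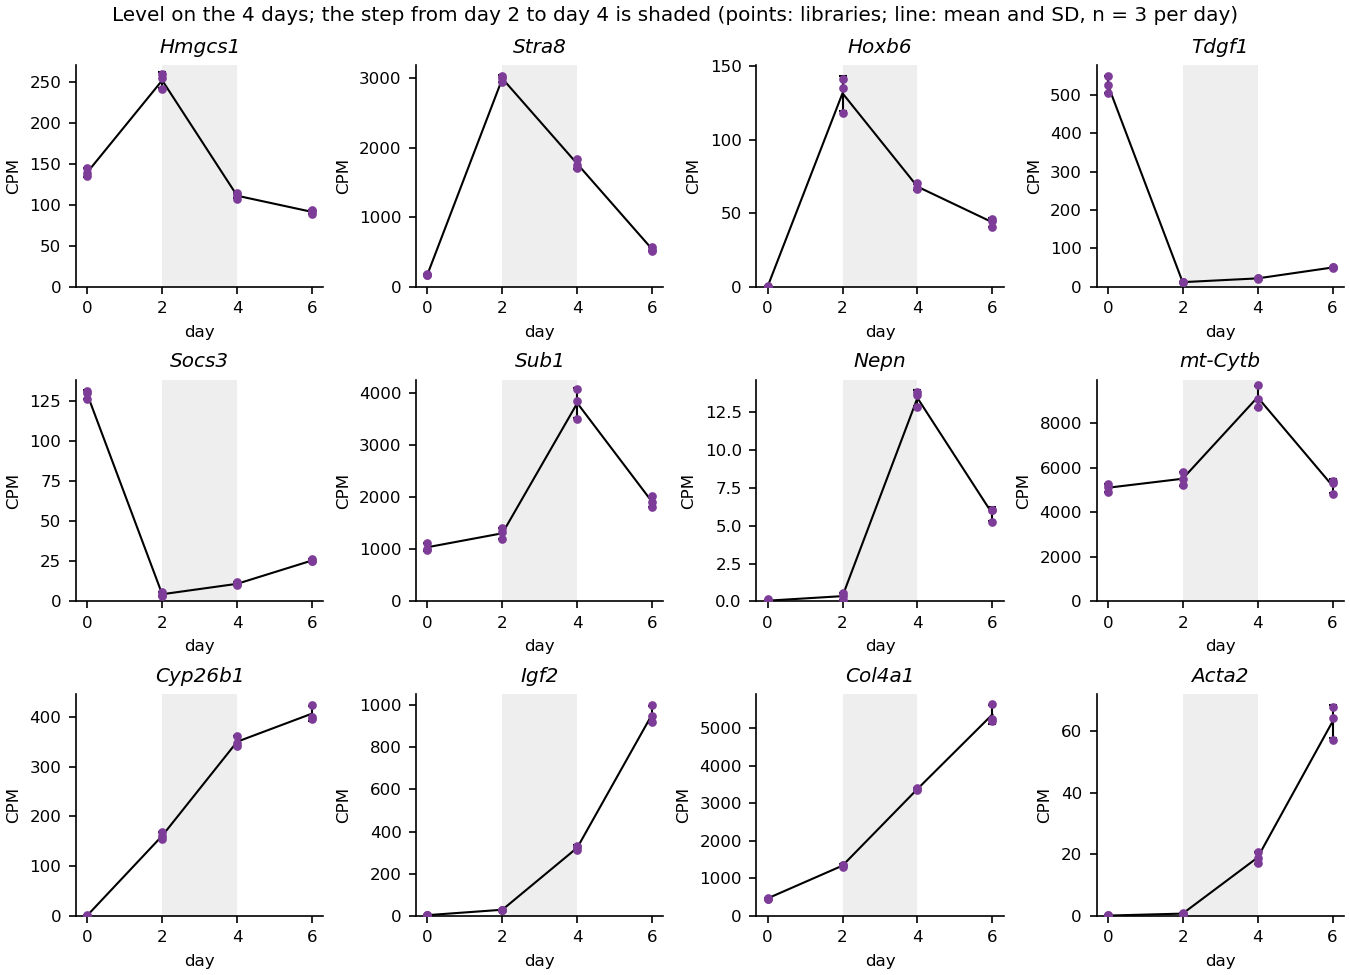
CPM of 12 genes on days 0, 2, 4 and 6 (points are libraries, the line joins the means of 3 libraries with their SD, axes from 0), with the step from day 2 to day 4 shaded. Hmgcs1, Stra8 and Hoxb6 peak at day 2, Tdgf1 and Socs3 are highest at day 0, Nepn, Sub1 and mt-Cytb peak at day 4, and Cyp26b1, Igf2, Col4a1 and Acta2 are highest at day 6.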

How the data were processed

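Polyadenylated RNA of mouse ES cells was extracted with a MiniBEST kit and made into libraries with a SMARTER kit, per the labels' protocols. The submitters' processing notes name FastQC 0.11.7, HISAT2 2.1.0, featureCounts 2.0.1, DESeq2 and the genome build mm10. Whether counting used strand and the release of the annotation are not given in the sources used here. The deposited table holds whole read counts per gene, not normalized by the authors, for 12 libraries, and was used as deposited.

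From these counts, edgeR 4.0.16 in R 4.3.3 fitted all 12 libraries with day as the only term, after its expression filter and TMM scaling, with a robust quasi-likelihood fit and Benjamini-Hochberg adjustment over 16468 genes. All libraries share 1 estimate of the spread. Day 4 was tested against day 2, and the second step against the first and the last. CPM were scaled by TMM. The procedure was tested on simulated data. Positions are from GENCODE M21 (55154 of 55335 gene IDs matched) and promoters from RefSeq GRCm38.p6.

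The lists and members were chosen with earlier results of these data known. Genes were named by rule: the 15 largest fold changes each way (adjusted p under 0.05, at least 5 CPM in the higher day, libraries of the days not overlapping, clone names passed over), the 8 largest in CPM each way at 1.5-fold or more, up to 4 genes per list with the smallest p, all genes of a list with 5 or fewer calls in a direction, and 31 genes whatever their values. Only some of these are printed, and some items are not reported here. Other genes in the text were chosen after their values were seen. Intervals of count ratios cover counting error only.

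Alternatives were library size alone, median-ratio and upper-quartile factors, a filter of 1 CPM in at least 3 libraries or none, DESeq2 1.42.0, limma-voom (limma 3.58.1), the 6 libraries alone, a replicate block, thinning to the smallest library, an adjusted p under 0.01, leaving out Gm42418 with the mitochondrially encoded genes, and leaving out each library. No column of the table was left out.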

Additional observations from a re-analysis of the deposited data

How the results depend on the processing

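The 8245 changed genes numbered 7391 to 8355 when each library was left out in turn, with 3750 to 4219 rises and 3628 to 4136 falls. Changes of at least 2-fold numbered 1543 to 1633 (973 to 1042 up, 527 to 591 down). The second step then differed from the first for 7813 to 8897 genes (3606 to 4120 above, 4207 to 4777 below) and from the last for 4476 to 5575 (2290 to 3010 above, 2186 to 2804 below). Across the other alternatives, the changed genes numbered 6420 at an adjusted p under 0.01, 6763 with DESeq2 (6741 of them also called by edgeR), 6838 after thinning and 7847 to 8253 under the rest, and no count of changed genes moved by over 1.5 times.

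The replicate numbers showed no pairing over all genes tested: deviations of same-numbered libraries from their day means correlated at 0.0277, -0.0183 and -0.00416. A pairing limited to some genes could be missed by such correlations. With the replicate number as a block, 8180 genes changed (4133 up, 4047 down), 8742 differed between the second and first steps and 5558 between the second and last.

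No named gene reversed. Of 453 named genes that passed, 50 lost the call under at least 1 of 24 alternatives, Klf4 and Ctcf among them. The median of gut and liver endoderm genes, not used above, was 0.67 and became -0.04 in the fit of the 6 libraries alone; the cause was not tested. Depth limits genes at a few CPM, since 3 counts over a day correspond to 0.112 CPM at day 4 and 0.0824 CPM at day 2.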

Other observations

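Markers of blood and endothelium, not described above, changed in both directions. Of the 13 above the filter, 4 rose, 3 fell and 6 did not pass (median log2 0.05). The vascular cadherin gene Cdh5 averaged 10.5 ± 2.32 CPM at day 4 and 2.72 ± 0.801 CPM at day 2 (log2 1.89 ± 0.21), while Pecam1, an adhesion gene of endothelium that ES cells also carry, averaged 72.03 ± 4.08 CPM at day 4 and 149 ± 1.62 CPM at day 2 (log2 -1.05 ± 0.05). Among Lin28, let-7 targets and their partners, Mycn averaged 94.3 ± 4.21 CPM at day 4 and 41.98 ± 2.95 CPM at day 2 (log2 1.17 ± 0.06) and the RNA-binding gene Igf2bp3 fell (-0.65 ± 0.05). Of 38 proteasome genes, 8 rose, 17 fell and 13 did not pass (median log2 -0.09), and of 24 genes of ribosome biogenesis and Myc targets, 4 rose, 11 fell and 9 did not pass (median log2 -0.12).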
